A study of Mus musculus with 9 samples.

Results

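The genes described here are 10 genes of fatty acid synthesis, desaturation and elongation: Srebf1, Acly, Acaca, Fasn, Scd1, Scd2, Elovl5, Elovl6, Fads1 and Fads2. They were picked out by symbol from a table of 53647 genes, and all 10 were among the 13661 genes with enough counts to be tested. Transcripts were measured by mRNA sequencing in Hepa 1-6, a mouse hepatoma cell line grown in medium with serum, in 3 groups of 3 samples. The control cells carried a control guide RNA. The Usp5 knockout cells had received a lentiviral CRISPR construct against Usp5, which encodes a deubiquitinase. The Ythdf1 knockout cells had received CRISPR/Cas9 plasmids that also encode EGFP, directed against Ythdf1, whose product binds N6-methyladenosine in mRNA. Knockout cells were grown from single cells and screened by immunoblot, so a group may stand for 1 clone, and clone, delivery method and genotype cannot be told apart.

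Cells build saturated fatty acids from citrate: Acly makes cytosolic acetyl-CoA, Acaca carboxylates it to malonyl-CoA, and Fasn joins these units into palmitate. Elovl6 lengthens palmitate to stearate, Scd1 and Scd2 place a delta-9 double bond in these chains, and Fads1, Fads2 and Elovl5 desaturate and lengthen polyunsaturated fatty acids. Srebf1 encodes the transcription factor SREBP-1, which in liver switches on most of these genes after it is cut from its membrane precursor. Scd1 is the main isoform of adult mouse liver, and Scd2 is the main one of brain and of the developing liver.

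The upstream DNA of 4 genes is shown because they cover the range of responses described below: Elovl6 and Acly fell in the Ythdf1 knockout, Elovl5 fell in the Ythdf1 knockout and rose in the Usp5 knockout, and Fasn was called in neither. Each sequence is the 250 bases before the RefSeq transcription start (build GRCm38.p6, another build than that of the counts), read 5′ to 3′ on the gene's strand, with capitals for the motifs searched on both strands.
Elovl6, chr3:129532136-129532385, plus strand: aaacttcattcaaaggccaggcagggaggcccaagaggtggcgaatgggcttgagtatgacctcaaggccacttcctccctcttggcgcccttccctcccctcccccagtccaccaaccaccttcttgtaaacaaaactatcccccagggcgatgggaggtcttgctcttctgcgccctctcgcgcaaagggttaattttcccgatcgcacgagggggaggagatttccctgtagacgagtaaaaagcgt
Acly, chr11:100528001-100528250, minus strand: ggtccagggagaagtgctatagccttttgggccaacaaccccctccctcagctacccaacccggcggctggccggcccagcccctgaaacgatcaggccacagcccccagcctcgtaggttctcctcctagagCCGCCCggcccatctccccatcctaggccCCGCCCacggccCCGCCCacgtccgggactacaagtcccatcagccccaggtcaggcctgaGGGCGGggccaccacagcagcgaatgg
Elovl5, chr9:77917115-77917364, plus strand: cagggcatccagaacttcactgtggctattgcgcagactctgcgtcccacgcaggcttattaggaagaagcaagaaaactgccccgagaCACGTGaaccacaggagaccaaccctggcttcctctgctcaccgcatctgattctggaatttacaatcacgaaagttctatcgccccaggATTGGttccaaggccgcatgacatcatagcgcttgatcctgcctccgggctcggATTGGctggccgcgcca
Fasn, chr11:120824548-120824797, minus strand: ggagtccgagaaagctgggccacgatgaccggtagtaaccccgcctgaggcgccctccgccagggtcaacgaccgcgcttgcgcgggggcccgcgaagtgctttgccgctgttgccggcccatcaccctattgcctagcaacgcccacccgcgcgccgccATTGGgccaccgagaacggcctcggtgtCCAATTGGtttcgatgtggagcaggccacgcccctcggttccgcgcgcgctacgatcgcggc
The motifs were the sterol regulatory element TCACNCCAC, the E-box CACGTG, the CCAAT box CCAAT and the GC box GGGCGG. The Acly window held 4 GC boxes, the Elovl5 window held 1 E-box and 2 CCAAT boxes, and the Fasn window held 3 CCAAT boxes, of which 2 overlap each other. None of the motifs occurred in the Elovl6 window. Among 32851 windows of the same length before RefSeq starts, 1.05% held the sterol element, 6.02% the E-box, 33.8% the CCAAT box and 32.7% the GC box. Among the 12868 windows that belong to tested genes the shares were 1.03%, 8.25%, 35.8% and 56.2%, in the same order. Sequences were found for 7 of the 10 genes, with 3 start sites for Srebf1, and no window of these held the sterol element. A match is only a description of the letters in the window.

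The samples held 24760877 to 42989715 counts, and levels are given as CPM (counts scaled to library size) after TMM scaling, with means ± SD over 3 samples. The target transcripts followed the labels. Usp5 was at 214 ± 26.5 CPM in control (n = 3) and 115 ± 6.58 in the Usp5 knockout (n = 3), and Ythdf1 at 189 ± 7.06 in control (n = 3) and 48.3 ± 2.22 in the Ythdf1 knockout (n = 3). The hepatoma markers Alb, Afp, Hnf4a, Krt8 and Krt18 were all detected, as was Apob. Apoa1, Ttr and Serpina1a were near 0 in control, at means of 0.290, 0.0642 and 0.0537 CPM. All 9 hepatocyte and hepatoma markers together summed to 3959 to 4111 CPM in control, 4791 to 5041 in the Usp5 knockout and 5766 to 5810 in the Ythdf1 knockout. The 6 adipocyte markers summed to 9.10 to 15.5 CPM over all samples, with Adipoq, Lep and Plin1 at 0 in the control and Ythdf1 knockout samples. The 6 leukocyte markers summed to less than 10 CPM in every sample, with Cd3e at 0 throughout. The 7 fibroblast and endothelial markers summed to 855 to 1268 CPM in control, 1084 to 1415 in the Usp5 knockout and 1062 to 1291 in the Ythdf1 knockout. Dcn made up nearly all of that sum, with means of 999, 1237 and 1152 CPM in the 3 groups, and the other 6 of these markers were each below 1 CPM on average in every group. Mitochondrially encoded genes took 2.32% to 6.14% of counts, with the highest share of each group in control replicate 3, Usp5 knockout replicate 2 and Ythdf1 knockout replicate 2.

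In control cells Scd2 was the most abundant of the 10 transcripts per length, at 274 ± 13.6 CPM per kb (n = 3), and Elovl6 the least, at 9.12 ± 0.335 CPM per kb (n = 3). Between them, in falling order, were Acly (109 CPM per kb), Fasn (98.1), Scd1 (86.7), Fads2 (60.4), Srebf1 (49.3), Fads1 (42.5), Elovl5 (24.5) and Acaca (22.1). The ranges of Acly, Fasn and Scd1 overlapped, as did those of Fads2 with Srebf1 and of Srebf1 with Fads1. With effective lengths in place of lengths, Fasn and Scd1 changed places. The same order held in the Usp5 knockout except that Scd1 (100.995 CPM per kb) moved ahead of Acly (100.495) and Fasn (89.4), and Fads1 (48.7) ahead of Srebf1 (46.5). The ranges of Scd1 and Acly overlapped there, as did those of Fads1 and Srebf1. In the Ythdf1 knockout Scd2 no longer stood apart: Fasn was at 91.9 ± 7.83 CPM per kb (n = 3), Scd1 at 84.8 ± 6.13 (n = 3) and Scd2 at 82.9 ± 3.39 (n = 3), with overlapping ranges. Acly (73.9 CPM per kb), Fads1 (39.3), Srebf1 (35.5), Fads2 (34.0), Elovl5 (17.4), Acaca (13.9) and Elovl6 (2.32) followed, of which the ranges of Srebf1 and Fads2 overlapped. With effective lengths, Scd1, Scd2 and Fasn came first in that order.

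The Ythdf1 knockout was compared with control first. In the Ythdf1 knockout 7 of the 10 transcripts were lower than in control and 0 were higher, with Elovl6 and Scd2 reduced most, to 25.4% and 30.3% of control. Acaca, Fads2, Acly, Srebf1 and Elovl5 fell to between 56.3% and 72.0% of control, while Fasn, Scd1 and Fads1 were not called. Calls were made at a Benjamini-Hochberg adjusted p under 0.05 in edgeR's quasi-likelihood test over all genes tested. By this rule 46.5% of all genes were called, 22.8% lower and 23.7% higher, so that the 7 of 10 lower calls stand beside a background of 22.8%. All 10 fold changes were below 0, so none was higher at an unadjusted p under 0.05, and DESeq2 called 0 higher as well. The median log2 fold change of the 10 genes was -0.53, against 0.02 over all genes tested. In such bulk samples fewer cells of a type and less RNA per cell cannot be told apart. Of the 9 hepatocyte and hepatoma markers, 7 were higher in the same samples, beside 23.7% of all genes, and 2 (Krt8 and Apoa1) were not called. Among those 7, Ttr rose from 0.0642 to 1.08 CPM and Serpina1a from 0.0537 to 2.56 CPM, levels near the floor. The part of these markers in the result was not tested.

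**Figure D1:**
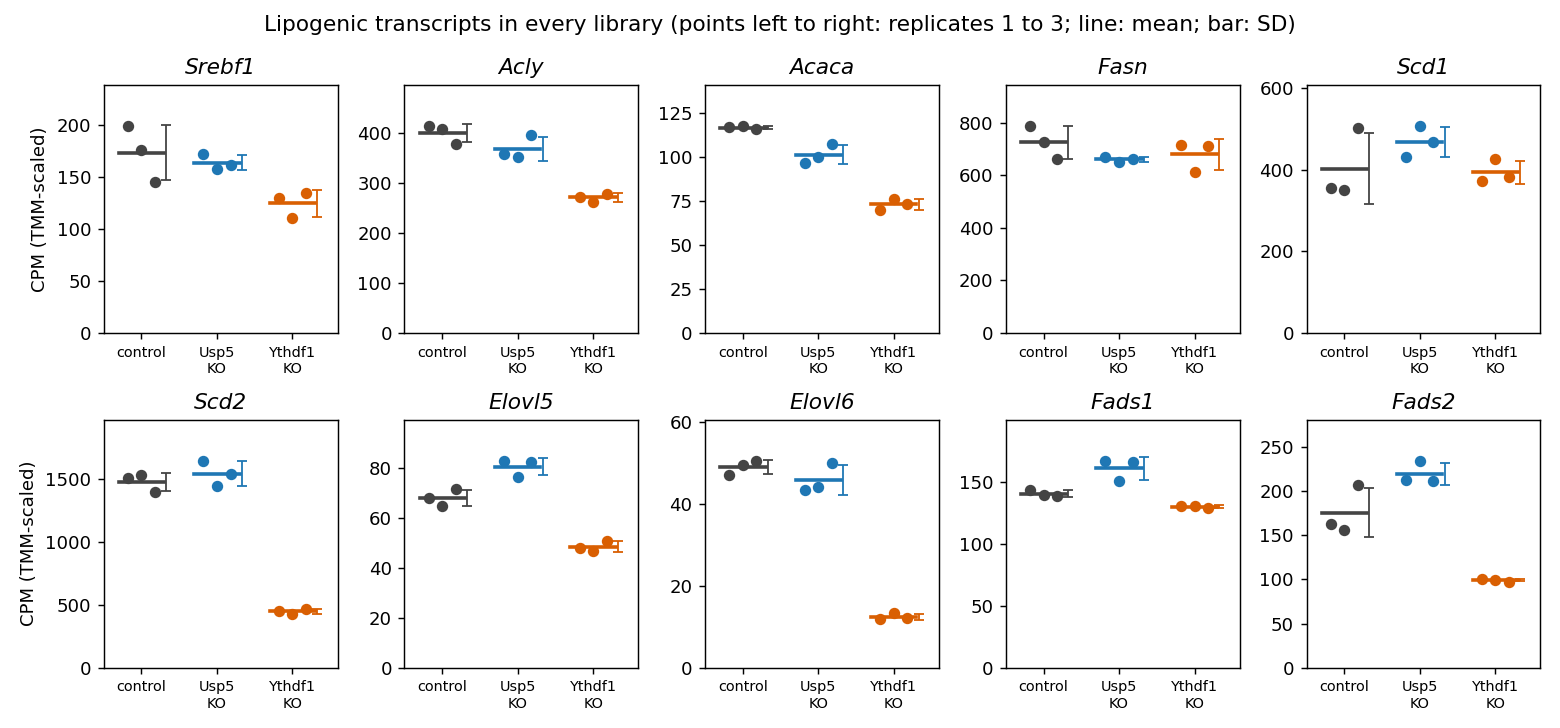
Level of each of the 10 transcripts in CPM after TMM scaling (vertical axes from 0), by group; points are the 3 libraries of a group, from left to right replicates 1 to 3, lines are means and bars are SDs. Scd2 and Elovl6 in the 3 Ythdf1 knockout libraries lie far below all other libraries, while the ranges of Fasn overlap.

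Srebf1, the transcription factor gene, was at 199, 176 and 146 CPM in the control samples, 172, 158 and 162 with Usp5 knocked out and 130, 110.3 and 135 with Ythdf1 knocked out. The lowest control sample lay above all Ythdf1 knockout samples and below all Usp5 knockout samples. Its log2 fold change in the Ythdf1 knockout was -0.47 ± 0.118 (SE; edgeR's quasi-likelihood test with Benjamini-Hochberg adjustment, adjusted p = 0.00791). Srebf1 overlaps Rai1 on the opposite strand in the reference annotation. Rai1 was at 219 CPM in control and 199 in the Ythdf1 knockout, and without strand information reads in the overlap could be counted for either gene.

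The 3 enzymes up to palmitate did not behave alike. Acly was at 414, 409 and 379 CPM in control, 358, 353 and 397 with Usp5 knocked out and 273, 262 and 279 with Ythdf1 knocked out. Its Ythdf1 knockout values lay below every other sample, a log2 fold change of -0.56 ± 0.0789 against control (SE; edgeR with Benjamini-Hochberg adjustment, adjusted p = 0.000319). Acaca, which was the steadiest of the 10 genes among control samples, was at 117, 118 and 116 CPM in control, 96.7, 100.1 and 107 with Usp5 knocked out and 70.2, 76.5 and 73.1 with Ythdf1 knocked out. The 3 groups did not overlap, in falling order from control to the Usp5 and then the Ythdf1 knockout. Against control, Acaca changed by -0.67 ± 0.0700 on the log2 scale in the Ythdf1 knockout (SE; edgeR with Benjamini-Hochberg adjustment, adjusted p = 5.97e-05).

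Fasn was at 786, 727 and 662 CPM in control, 668, 651 and 663 with Usp5 knocked out and 714, 612 and 710.4 with Ythdf1 knocked out. All 3 groups overlapped. Its log2 fold change in the Ythdf1 knockout was -0.10, with a 95% interval from -0.30 to 0.11 (edgeR with Benjamini-Hochberg adjustment, adjusted p = 0.424). The interval leaves room for a fall of up to 0.30 on the log2 scale, a smaller fall than the intervals of Acly (-0.74 to -0.39) and Acaca (-0.83 to -0.52) span.

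Among the delta-9 desaturases only Scd2 was called. Scd2 was at 1511, 1533 and 1396 CPM in control, 1645, 1447 and 1538 with Usp5 knocked out and 452, 428 and 464 with Ythdf1 knocked out. The Ythdf1 knockout samples lay far below every other sample, and the control and Usp5 knockout ranges overlapped. The log2 fold change was -1.72 ± 0.0860 (SE; edgeR with Benjamini-Hochberg adjustment, adjusted p = 6.54e-07), and 190 of the 3119 genes called lower fell more. Scd1 was at 354, 350.3 and 502 CPM in control, 432, 506 and 466 with Usp5 knocked out and 371, 425 and 383 with Ythdf1 knocked out. Control replicate 3 stood well above the other control samples, so the control range spanned the Ythdf1 knockout values. The log2 fold change of Scd1 in the Ythdf1 knockout was -0.03, with a 95% interval from -0.34 to 0.27 (edgeR with Benjamini-Hochberg adjustment, adjusted p = 0.867). Without control replicate 3 it was 0.16 and still not called.

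Because both desaturases were counted in the same libraries, their ratio does not depend on library scaling. Scd1 made up 21.5%, 21.0% and 29.5% of the counts per kb of the pair in control, 23.4%, 29.0% and 26.1% with Usp5 knocked out, and 48.9%, 53.7% and 49.1% with Ythdf1 knocked out. The Ythdf1 knockout samples did not overlap the other groups, where the ranges of control and Usp5 knockout did. The log2 ratio of Scd1 to Scd2 counts was -1.90 ± 0.367 (SD, n = 3) in control and -0.19 ± 0.157 (SD, n = 3) in the Ythdf1 knockout, a difference of 1.71. A two-sided exact permutation test gave p = 0.1, the smallest that 3 against 3 samples allow, and 0.129 after adjustment over the 9 ratio comparisons made. In the reference transcripts 5.18% of the 31-base words of Scd1 also occur in Scd2. How reads were assigned between both genes was not tested.

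**Figure D2:**
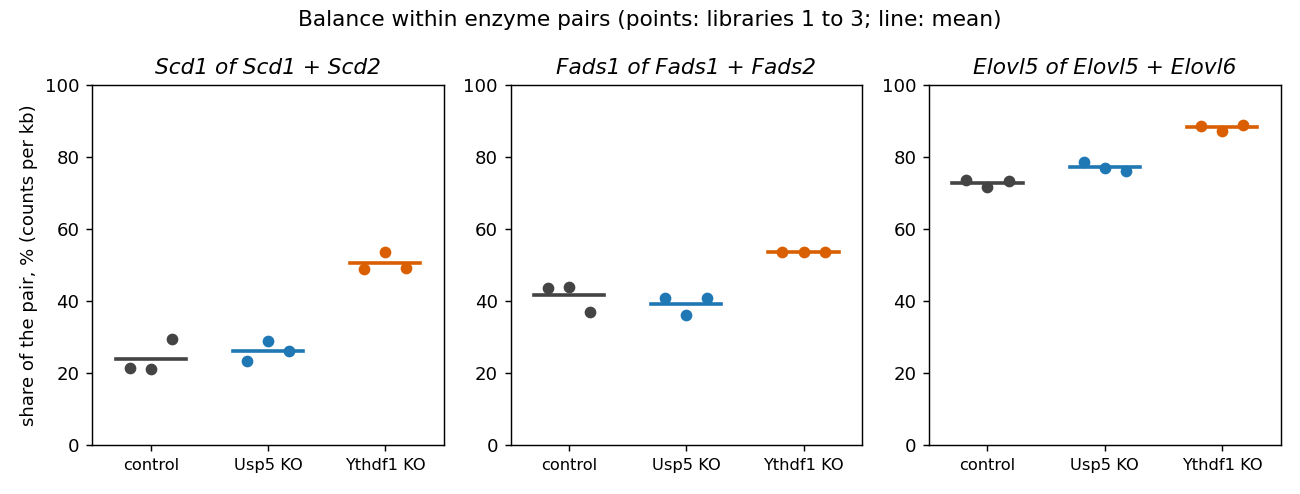
Share of the first gene in the counts per kb of an enzyme pair, in percent (vertical axis from 0 to 100), by group; points are the 3 libraries of a group and lines are means. Scd1 rises from 21.0% to 29.5% of its pair in control to 48.9% to 53.7% in the Ythdf1 knockout.

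Elovl6 fell more than any other of the 10 genes. It was at 47.0, 49.5 and 50.4 CPM in control, 43.3, 44.2 and 50.0 with Usp5 knocked out and 11.8, 13.3 and 12.2 with Ythdf1 knocked out, where all 3 samples lay far below every other sample. The log2 fold change was -1.98 ± 0.0899 (SE; edgeR with Benjamini-Hochberg adjustment, adjusted p = 4.32e-07), and 139 of the 3119 genes called lower fell more. Elovl5, the elongase of polyunsaturated chains, was at 67.9, 64.9 and 71.5 CPM in control, 82.8, 76.6 and 82.4 with Usp5 knocked out and 47.9, 46.7 and 50.8 with Ythdf1 knocked out. None of the 3 groups overlapped, and the Usp5 knockout was highest. Its change in the Ythdf1 knockout was smaller than that of Elovl6, at -0.49 ± 0.0741 on the log2 scale (SE; edgeR with Benjamini-Hochberg adjustment, adjusted p = 0.000501). The log2 ratio of Elovl5 to Elovl6 counts was 0.47 ± 0.0741 (SD, n = 3) in control, 0.82 ± 0.109 (SD, n = 3) in the Usp5 knockout and 1.96 ± 0.133 (SD, n = 3) in the Ythdf1 knockout. No groups overlapped in this ratio, and each of the 3 comparisons reached the smallest exact permutation p of 0.1 (two-sided, adjusted p = 0.129).

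The polyunsaturated desaturases also differed from each other. Fads2, the delta-6 desaturase, was at 163, 156 and 208 CPM in control, 213, 234 and 211 with Usp5 knocked out and 99.96, 99.1 and 97.7 with Ythdf1 knocked out. The Ythdf1 knockout samples were tightly grouped below all others, and control replicate 3 approached the Usp5 knockout values. The log2 fold change in the Ythdf1 knockout was -0.83 ± 0.107 (SE; edgeR with Benjamini-Hochberg adjustment, adjusted p = 0.000199). Fads1, the delta-5 desaturase, was at 143, 139.3 and 139 CPM in control, 167, 150.1 and 166 with Usp5 knocked out and 131, 131 and 128 with Ythdf1 knocked out. Its groups did not overlap, but the change of -0.11 in the Ythdf1 knockout was not called (edgeR with Benjamini-Hochberg adjustment, adjusted p = 0.210; 95% interval -0.26 to 0.04). Separated groups were common: in this comparison 57.1% of all tested genes, and 8 of the 10 genes here, did not overlap. With library sizes alone as the scaling, Fads1 was called lower at -0.25.

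Fads1 made up 43.6%, 43.9% and 37.0% of the counts per kb of both Fads genes in control and 40.8%, 36.1% and 40.8% in the Usp5 knockout, ranges that overlapped. In the Ythdf1 knockout the share was 53.5%, 53.7% and 53.6%, above all other samples. The log2 ratio of Fads1 to Fads2 differed from control by 0.71 in the Ythdf1 knockout, with an exact permutation p of 0.1 (two-sided, adjusted p = 0.129, n = 3 in each group). Summed by step, the delta-9 desaturases went from 361 ± 5.45 CPM per kb in control (n = 3) to 168 ± 3.63 in the Ythdf1 knockout (n = 3), and the elongases from 33.6 ± 1.33 to 19.7 ± 0.698. The enzymes up to palmitate went from 229 ± 13.4 to 180 ± 9.56 CPM per kb and the polyunsaturated desaturases from 103 ± 9.19 to 73.3 ± 0.793 (SD, n = 3 in each group). These sums are levels and were not tested.

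The Usp5 knockout was then compared with the same control samples. Here the 10 genes stayed near their control levels: only Elovl5 was called, at 118% of control, and the median log2 fold change of the 10 genes was -0.01, equal to the all-gene median to 2 decimals. Elovl5 rose by 0.24 ± 0.0734 on the log2 scale (SE; edgeR's quasi-likelihood test with Benjamini-Hochberg adjustment, adjusted p = 0.0414). In this comparison 19.8% of all genes were called, 9.96% higher and 9.8% lower, so 1 of 10 called higher is near the background of 9.96%. DESeq2 called 4 of the 10 genes and 3221 genes in all, where edgeR called 2700 in all. The Elovl5 call was lost when any library other than control replicate 3 was left out, with adjusted p between 0.0543 and 0.165 (edgeR, Benjamini-Hochberg). It was also lost with no filter on low counts (adjusted p = 0.138) and with library sizes alone as the scaling (0.16, adjusted p = 0.157). With library sizes alone Acaca was called lower in its place (-0.29, adjusted p = 0.0316), and with no filter Fads2 was called higher (0.31, adjusted p = 0.0435; edgeR with Benjamini-Hochberg adjustment).

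For 4 of the genes described here the Usp5 knockout and control samples did not overlap, beside 33.2% of all tested genes. The same 4 were the only ones with an unadjusted p under 0.05 in edgeR. That count cannot be weighed, because no all-gene share at this threshold is given. Besides Elovl5 these were Fads2 at 0.32 ± 0.106 (adjusted p = 0.0576), Fads1 at 0.20 ± 0.0690 (adjusted p = 0.0717) and Acaca at -0.20 ± 0.0694 (adjusted p = 0.0646; log2 fold changes ± SE, edgeR with Benjamini-Hochberg adjustment). Without control replicate 3, Scd1 (0.41), Elovl5 and Fads2 (0.46) were called higher. The 95% intervals for the remaining genes were -0.34 to 0.18 for Srebf1, -0.29 to 0.06 for Acly, -0.34 to 0.07 for Fasn, -0.09 to 0.53 for Scd1, -0.13 to 0.25 for Scd2 and -0.28 to 0.09 for Elovl6. The intervals for Scd2 and Elovl6 exclude falls of the size seen in the Ythdf1 knockout.

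**Figure D3:**
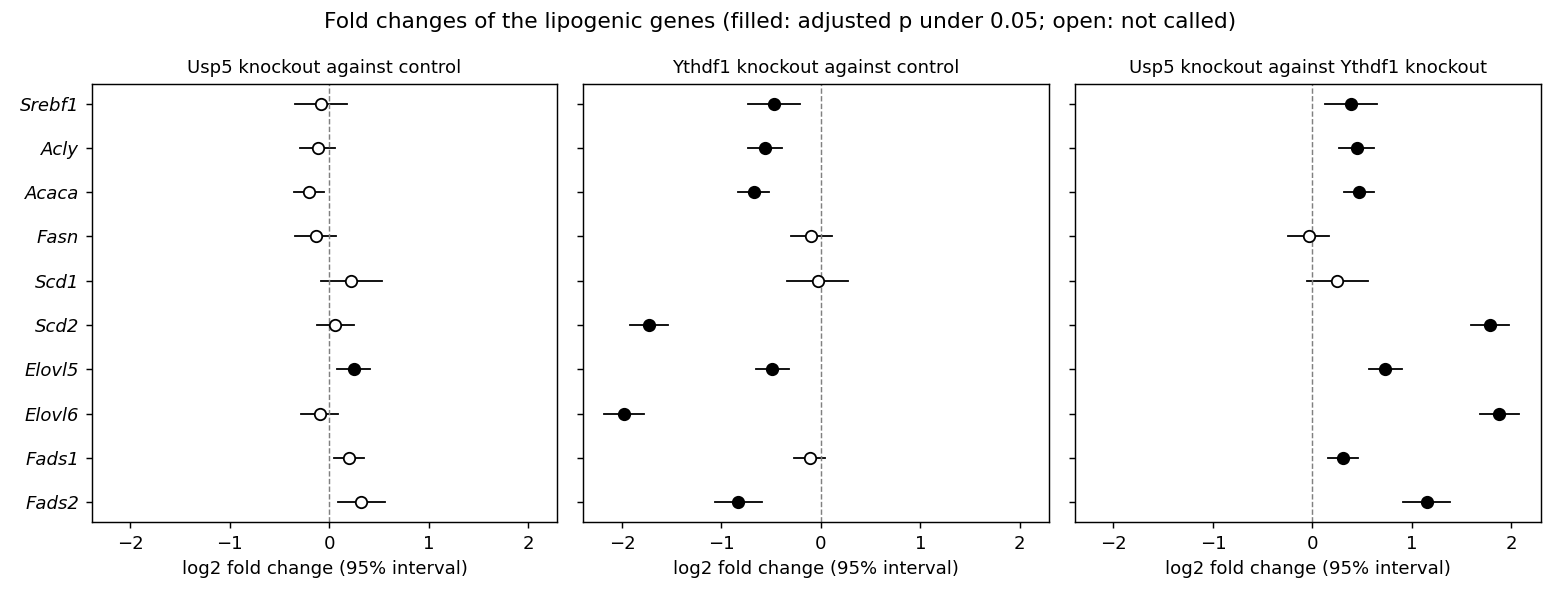
Log2 fold change of the 10 genes in the 3 comparisons (horizontal axis; bars are 95% intervals; filled points are called at an adjusted p under 0.05, open points are not). Elovl6 at -1.98 and Scd2 at -1.72 stand apart in the Ythdf1 knockout against control, and the points of the Usp5 knockout against control lie near 0.

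Both comparisons share their control samples, so the knockouts were also compared with each other directly. In the Usp5 knockout 8 of the 10 genes were higher than in the Ythdf1 knockout and 0 were lower, beside 48.5% of all genes called, 23.3% higher and 25.2% lower. Elovl6 differed by 1.88 ± 0.0898 (adjusted p = 2.77e-07), Scd2 by 1.78 ± 0.0862 (adjusted p = 2.98e-07) and Fads2 by 1.15 ± 0.107 (adjusted p = 2.27e-05; log2 fold changes ± SE, edgeR with Benjamini-Hochberg adjustment). Elovl5 (0.73), Acaca (0.47), Acly (0.44), Srebf1 (0.39) and Fads1 (0.31) differed less. Fasn was at -0.04 (95% interval -0.24 to 0.17), the only gene below 0, with an unadjusted p of 0.682, and DESeq2 called 0 genes lower. Scd1 was at 0.25 (95% interval -0.05 to 0.56) and not called, although its groups did not overlap, as was the case for 9 of the 10 genes and 59.0% of all genes tested. Scd1 was called at 0.25 without control replicate 3, and Srebf1 lost its call without Ythdf1 knockout replicate 2 (0.34, adjusted p = 0.0549 in edgeR with Benjamini-Hochberg adjustment).

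The genes that surround the pathway were taken from 6 lists. Over all genes tested, 23.7% were called higher and 22.8% lower in the Ythdf1 knockout, and 9.96% and 9.8% in the Usp5 knockout. Between the knockouts these shares were 23.3% and 25.2%. Several of the list counts lay near such shares, and no list was tested as a set. Among 11 tested genes of SREBP processing and lipogenic regulation, 2 were higher and 3 lower in the Ythdf1 knockout, with a median log2 fold change of -0.11. Insig1, which holds the SREBP precursors in the endoplasmic reticulum and is itself an SREBP target, fell from 23.9 ± 2.33 to 10.8 ± 0.478 CPM (n = 3 each), a log2 fold change of -1.146. Srebf2, the gene of the cholesterol-directed SREBP, fell from 338 ± 16.8 to 209 ± 12.3 CPM (-0.69). Nr1h3, which encodes the oxysterol receptor LXR-alpha, rose from 6.60 ± 0.471 to 13.1 ± 0.700 CPM (0.99), and Scap, the escort of the SREBPs, rose by 0.27. Loss of Usp5 left 3 higher and 1 lower, at a median of 0.00: Insig1 rose to 31.1 ± 2.30 CPM (0.38), and Nr1h2, the gene of LXR-beta, rose by 0.30. The 3 rises became 0 with library sizes alone as the scaling, with only the 2 groups compared and at an adjusted p under 0.01. They also became 0 without Usp5 knockout replicate 1 or 2. The count was 1 with the replicate number as a block and without control replicate 2 or Ythdf1 knockout replicate 1 or 3. The 2 higher calls in the Ythdf1 knockout became 1 without Ythdf1 knockout replicate 1 or 3. The same held with library sizes alone and with no filter on low counts. The lower gene of the Usp5 knockout, Mlxipl, was below 1 CPM in each group, was named after its values were seen, and lost its call without control replicate 1, Ythdf1 knockout replicate 1 or any of the Usp5 knockout samples.

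Most cholesterol synthesis genes, which respond to SREBP-2, fell in the Ythdf1 knockout. Of 23 genes, all tested, 16 were lower and 0 higher, at a median of -0.52, and the count of higher genes was also 0 under each alternative tried, DESeq2 included. Idi1, an isomerase of the isoprenoid steps, fell from 55.2 ± 2.69 to 13.9 ± 1.05 CPM (-1.99), and Stard4, a cholesterol carrier, from 57.0 ± 6.35 to 16.2 ± 0.372 CPM (-1.81; n = 3 in each group). With Usp5 knocked out, 6 of the 23 were higher and 1 lower, at a median of 0.28. Dhcr7, the last reductase of cholesterol synthesis, rose from 52.4 ± 2.65 to 83.2 ± 5.02 CPM (0.67) and Mvd, the mevalonate decarboxylase, from 17.99 ± 2.02 to 28.6 ± 1.67 (0.67). Acat2, the cytosolic thiolase, was the 1 lower gene, at -0.52, and 43.75% of its 31-base words in the reference transcripts also occur in its neighbour Acat3, so its counts are uncertain. Between the knockouts 20 of the 23 were higher in the Usp5 knockout and 0 lower, led by Idi1 (2.02) and Hmgcs1 (2.01), the synthase before the rate-limiting reductase.

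**Figure D4:**
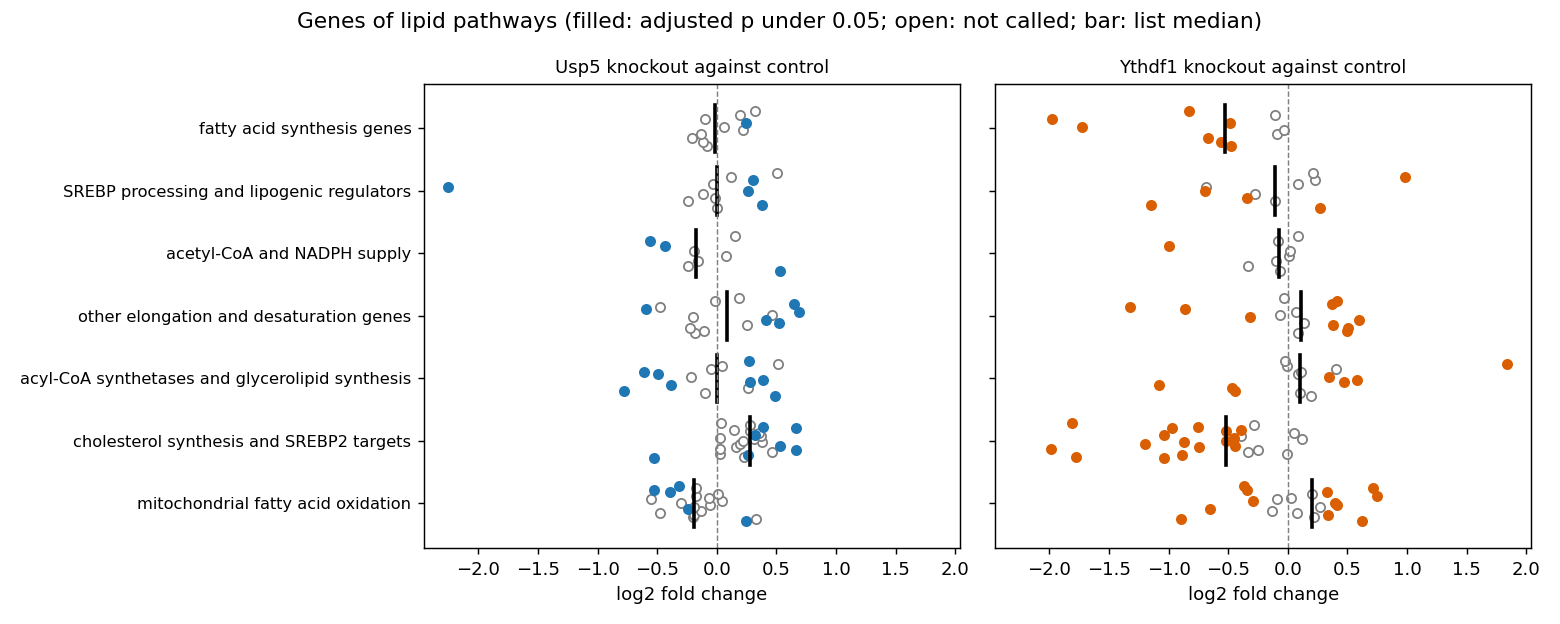
Log2 fold change of single genes (points, horizontal axis) by pathway list in the Usp5 and the Ythdf1 knockout against the shared control; filled points are called at an adjusted p under 0.05 and black bars are list medians. The medians of the 10 fatty acid genes (-0.53) and of cholesterol synthesis (-0.52) lie below 0 in the Ythdf1 knockout.

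Of 8 tested genes that supply acetyl-CoA and NADPH, 0 were higher and 1 lower in the Ythdf1 knockout (median -0.07): Idh1, a cytosolic NADPH source, fell from 115 ± 9.40 to 57.7 ± 1.47 CPM (-0.996; n = 3 each). In the Usp5 knockout 1 was higher and 2 were lower: Slc25a1, which exports citrate from mitochondria, rose by 0.53, while Idh1 (-0.43) and Mdh1 (-0.56), the cytosolic malate dehydrogenase, fell, at a list median of -0.17. The higher call was lost without Usp5 knockout replicate 1, and the lower count was 1 without control replicate 1 or 2 or Usp5 knockout replicate 1 or 2. Among 14 tested genes of the other elongation and desaturation steps, 6 were higher and 3 lower in the Ythdf1 knockout (median 0.11, and -0.03 with library sizes alone). Elovl7, an elongase of saturated chains, rose by 0.59 and Fads6 by 0.50, whereas Hacd3, a dehydratase of the elongation cycle, fell by 0.86 on the log2 scale and Hsd17b12, its ketoreductase, by 0.31. The Usp5 knockout had 4 higher and 1 lower (median 0.09). Hacd2 (0.69) and Tecr (0.65), the last reductase of the cycle, rose and Hacd3 (-0.59) fell. The higher count was 2 without control replicate 2, and that of the Ythdf1 knockout was 3 without Ythdf1 knockout replicate 1.

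Downstream of synthesis, 14 genes of acyl-CoA activation and glycerolipid synthesis were tested, and 4 were higher and 3 lower in the Ythdf1 knockout (median 0.11, and -0.03 with library sizes alone). Dgat2, which makes triglyceride, rose from 4.54 ± 1.26 to 16.4 ± 0.917 CPM (1.84), and Gpam, which starts glycerolipid synthesis, fell from 111 ± 3.57 to 52.6 ± 3.24 (-1.08; n = 3 in each group). Agpat2, which makes phosphatidic acid, rose by 0.58, and Acsl5, an acyl-CoA synthetase, fell (-0.47). The counts in the Usp5 knockout were 4 higher and 4 lower (median 0.00), among them the acyl-CoA synthetase Acsl1 (0.49) and Agpat2 (0.38), which rose, and the arachidonate-preferring synthetase Acsl4 (-0.77) and the phosphatidate phosphatase Lpin2 (-0.61), which fell. The count of higher genes was 1 without control replicate 1 or 2 or Usp5 knockout replicate 1 or 2, and 2 when leaving out Ythdf1 knockout replicate 1 or Usp5 knockout replicate 3. Of 19 genes of mitochondrial fatty acid oxidation, 7 were higher and 5 lower in the Ythdf1 knockout, beside 23.7% and 22.8% of all genes. The list median was 0.20, and -0.03 with the GC and length correction. Eci1 (0.75), an enoyl-CoA isomerase, and Etfb (0.71), a subunit of the electron transfer flavoprotein, rose, and Acadm (-0.65), a dehydrogenase of medium chains, and Etfdh (-0.37), which passes electrons from that flavoprotein to ubiquinone, fell. In the Usp5 knockout 1 was higher and 4 were lower (median -0.19). Cpt1a, the entry step, rose by 0.25, and Etfa (-0.53), the other flavoprotein subunit, and Decr1 (-0.39), a dienoyl-CoA reductase, fell. The 4 lower genes became 8 without control replicate 3, 1 without control replicate 1 or 2 or Usp5 knockout replicate 1, and 2 when leaving out Ythdf1 knockout replicate 1 or 3 or Usp5 knockout replicate 2. The count of 1 higher gene became 0 when any library other than control replicate 3 or Usp5 knockout replicate 1 was left out. In the Ythdf1 knockout the counts became 4 higher and 3 lower without Ythdf1 knockout replicate 1 or 3, and 3 were lower without control replicate 1 or 2. The calls of the genes named from lists are by edgeR's quasi-likelihood test at a Benjamini-Hochberg adjusted p under 0.05.

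Within groups, the library with the highest mitochondrial share stood out for several of the 10 genes. Control replicate 3, at 5.91% against 2.32% and 2.33%, had the lowest Srebf1, Acly, Fasn and Scd2 and the highest Scd1 of its group. The same 4 genes were lowest and Scd1 highest in Usp5 knockout replicate 2 and in Ythdf1 knockout replicate 2. Over all genes tested, 13.6% were lowest and 12.7% highest in all 3 of these libraries. Without these libraries, 7 of the 10 genes were called lower in the Ythdf1 knockout, as with them, while 4 (Scd1, Elovl5, Fads1 and Fads2) in place of 1 were called higher in the Usp5 knockout. Calls over all genes in the Usp5 knockout against control also rose, from 2700 to 3591, and those called higher from 1361 to 1943.

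**Figure D5:**
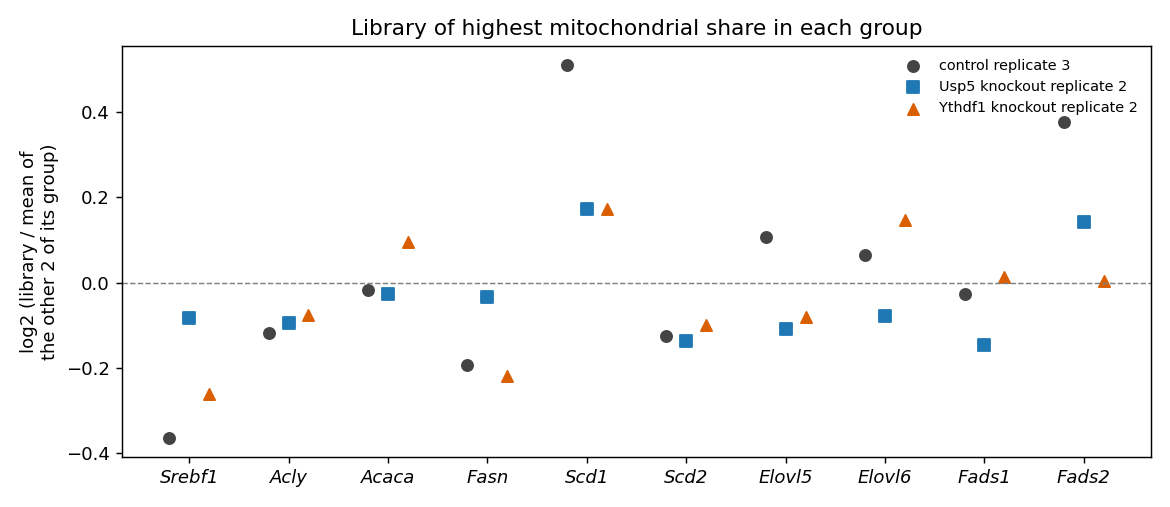
Log2 ratio of each transcript's CPM in the library of highest mitochondrial share to the mean of the other 2 libraries of its group (vertical axis), for the 10 genes; each symbol is 1 library. Scd1 lies above 0 and Srebf1, Acly, Fasn and Scd2 lie below 0 in all 3 libraries.

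The pattern over the 9 samples was also compared with other genes of at least 5 CPM, 9827 in all, by Pearson's r of log2 CPM. These samples share group means and libraries, so r is given as a description. Scd2 was most like Ankrd27 (r = 0.998) and Ythdf1 itself (r = 0.996), and among the 10 genes most like Elovl6 (r = 0.989). Elovl6 was most like Parp9 (r = 0.996) and Dido1 (r = 0.995). Acly and Acaca were each other's nearest of the 10 genes (r = 0.970), as were Elovl5 and Fads2 (r = 0.971). Many genes outside the 10 were nearer still: 63 to Acly, 144 to Acaca, 45 to Elovl5 and 72 to Fads2. For Scd2 and Elovl6 these counts were 13 and 28. Fasn and Scd1 were set apart, with the nearest of the 10 genes at r = 0.614 (Srebf1) and 0.603 (Fads2), respectively.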

How the data were processed

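The authors deposited a table of estimated counts per gene for 9 samples, in whole numbers, with a length and effective length per gene; these deposited lengths gave CPM per kb. fastp 0.23.2, STAR 2.7.10a, Salmon 1.9.0 and GRCm39 appear in the submitters' processing notes with no stated role. Strand use is not given there or in the labels. Groups came from the sample titles. No label says that replicates were separate cultures. The p-values therefore reflect the spread among these 9 samples alone, and that spread may be technical.

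Counts were tested in edgeR 4.0.16 (R 4.3.3; TMM, filterByExpr, quasi-likelihood test, group as the only term, all 9 samples), with Benjamini-Hochberg adjustment over 13661 genes and a threshold of 0.05. SEs were taken from the F statistic. Ratios used log2 of counts plus 0.5. Promoters came from RefSeq. Text names all 10 genes and both targets. From each pathway list it names up to 2 called genes per direction with the largest change and at least 5 CPM. For the direct comparison of the knockouts these are named for the cholesterol list only. Srebf2 and Mlxipl in the Usp5 knockout were named in addition to this rule. The 2 genes most alike are named for Scd2 and Elovl6 only. The genes and lists were chosen with earlier results of these data known. The test was tried on simulated data. Alternatives included DESeq2 1.42.0, limma-voom (limma 3.58.1), other scalings and filters, leaving out libraries and, chosen after seeing the data, a GC and length correction and leaving out the libraries of highest mitochondrial share.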

Additional observations from a re-analysis of the deposited data

How the results depend on the processing

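The 7 calls in the Ythdf1 knockout against control held under all 19 alternatives, with a count of 7 of the 10 genes in each leave-one-out fit. Their sizes moved: the log2 fold change ran from -0.63 to -0.25 for Elovl5 and from -0.65 to -0.37 for Srebf1. For Elovl6 it ran from -2.12 to -1.60. Fads1 joined the 7 called genes with library sizes alone as the scaling. Between the knockouts the count stayed within 7 to 9 when 1 library was left out. In the Usp5 knockout against control the count of 1 changed to 0 at an adjusted p under 0.01 and with only the 2 groups compared, 4 with DESeq2, 2 with limma-voom, 2 with the GC and length correction, 4 without the library of highest mitochondrial share in each group, and 0 to 3 when 1 library was left out. It stayed 1 for another gene with library sizes alone (Acaca, lower) and with no filter on low counts (Fads2, higher). Over all genes, the 2700 calls of that comparison became 1305 at an adjusted p under 0.01, 1756 with only the 2 groups compared, and 1494 to 4371 when 1 library was left out (4371 without control replicate 3, 1494 without control replicate 2, 1736 without control replicate 1 and 1626 without Usp5 knockout replicate 2). The all-gene count was 3221 with DESeq2, 2826 with limma-voom and 3591 with the GC and length correction. It was also 3591 without the library of highest mitochondrial share in each group.

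Small fold changes that were not called changed sign. In the Usp5 knockout against control these were Srebf1 (0.0253 without control replicate 1, and -0.195 to 0.0253 over the fits that left out 1 library), Scd2 (-0.0239 with library sizes alone) and Elovl6 (0.00891 with the GC and length correction). In the Ythdf1 knockout against control, Scd1 was at 0.16 without control replicate 3, 0.21 with the GC and length correction and 0.0774 without the libraries of highest mitochondrial share. Between the knockouts, Fasn was at 0.0203 with library sizes alone, 0.0015 with no filter on low counts, 0.0048 without Usp5 knockout replicate 2, 0.0265 without Ythdf1 knockout replicate 1, 0.0203 without Ythdf1 knockout replicate 3 and 0.0632 with the GC and length correction, and ran from -0.0791 to 0.0265 when 1 library was left out. The cause was not tested.

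The list counts were rerun under the same alternatives, a choice made after seeing the data. In the Usp5 knockout the counts of higher genes ran from 0 to 4 for SREBP regulators, 0 to 1 for acetyl-CoA and NADPH supply, 2 to 5 for other elongation genes, 1 to 6 for glycerolipid synthesis, 3 to 12 for cholesterol synthesis and 0 to 1 for oxidation. The counts of lower genes ran, in the same order, from 0 to 1, 1 to 3, 1 to 2, 4 to 4, 1 to 1 and 1 to 8. In the Ythdf1 knockout the higher counts ran from 1 to 3, 0 to 0, 3 to 7, 3 to 6, 0 to 0 and 4 to 7, and the lower counts from 3 to 4, 1 to 2, 2 to 3, 2 to 3, 15 to 20 and 2 to 6.

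Library sizes alone moved the all-gene median from 0.02 to -0.12 in the Ythdf1 knockout and from -0.01 to -0.10 in the Usp5 knockout. The share of calls that were higher went from 50.9% to 34.0% and from 50.4% to 35.9%. Same-numbered samples of different groups did not deviate together in every pair (r from -0.396 to 0.434). Differently numbered samples ranged from -0.516 to 0.537. The check cannot tell whether the numbers mark a shared day or batch, and the main fit did not use them. With the replicate block, 1, 7 and 8 of the 10 genes were called in the Usp5 knockout, the Ythdf1 knockout and between them, and 2346, 6198 and 6458 genes in all. The lowest count of any of the 10 genes in a library was 320, for Elovl6 in the Ythdf1 knockout; a limit from depth was not tested.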
